A study of Mus musculus with 31 samples.

Results

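Of the 31 arrays in the series, 5 carried the transcripts of pancreatic acinar cells at high signal. The arrays were chosen by the measured value of Cpa1, which encodes the digestive enzyme carboxypeptidase A1. An array was taken when its Cpa1 value lay more than 4 log2 units above the gene's mean over the 31 arrays. Values are on a log2 scale on which 0 is the 75th percentile of the array's processed signals. The remaining 26 arrays are called the other arrays. All samples were colon RNA of BALB/c mice of 4 to 6 weeks of age at the start. In all groups each mouse had received azoxymethane (AOM), a carcinogen, by injection and dextran sulphate sodium (DSS), which damages the colon epithelium, in the drinking water. From the first day of DSS on, CRC mice were given water by gavage and CRC + E171 mice the food additive E171 (titanium dioxide) at 5 mg/kg body weight, so that the 2-day mice were still on DSS. Males and females were sampled after 2, 7, 14 and 21 days, with 4 arrays in 7 of the 8 groups and 3 arrays in the CRC group of 21 days, 1 mouse per array.

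Acinar cells form the bulk of the exocrine pancreas. They make digestive enzymes, mostly as inactive precursors, pack them in zymogen granules and release them into the pancreatic duct, from where they reach the small intestine. The enzyme genes are driven by a small set of transcription factors, among them the PTF1 complex of Ptf1a and Rbpjl, and the cell has a large endoplasmic reticulum. The colon epithelium does not carry out this programme, although single genes of it, such as Klk1, Sycn, Zg16 and Dmbt1, were well above background on all 31 arrays here. In bulk tissue RNA, fewer acinar cells and less RNA per acinar cell cannot be told apart.

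The 5 arrays, in the order of their Cpa1 value, were CRC + E171 21 days female 2, CRC + E171 2 days female 2, CRC 7 days male 2, CRC 7 days female 1 and CRC 2 days male 2. Values listed below follow this order. Relative to the mean over the 31 arrays, Cpa1 stood at 11.61, 11.31, 9.67, 8.88 and 7.12 log2 units. The array just inside the threshold was thus CRC 2 days male 2 with 7.12, and the array just outside it was CRC 2 days female 2 with 1.87. No array lay between these values. The next array outside it, CRC + E171 14 days male 1, stood at -0.09, and the rest lay lower. The probe of Cpa1 lies at chr6:30595240-30595299 in mm9, the build named in the array files.

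The other 2 marker genes gave the same 5 arrays at the same threshold. Prss2, a trypsinogen, was read by a probe at chr6:41473937-41473996 (mm9), with 6.06 on the lowest of the 5 arrays and 0.62 on the highest of the others. Amy2a5, a pancreatic alpha-amylase, was read by a probe at chr3:113091400-113091459 with 5.49 and 0.33 for these arrays, and by a probe at chr3:113084781-113084840 with 8.23 and 2.99. The 5 arrays were also the same with Cpa1 thresholds of 2 or 3, after quantile normalization, after normexp background correction and in the authors' own values. These markers belong to the same programme as Cpa1, so they are a description of the choice and no test of it.

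**Figure D1:**
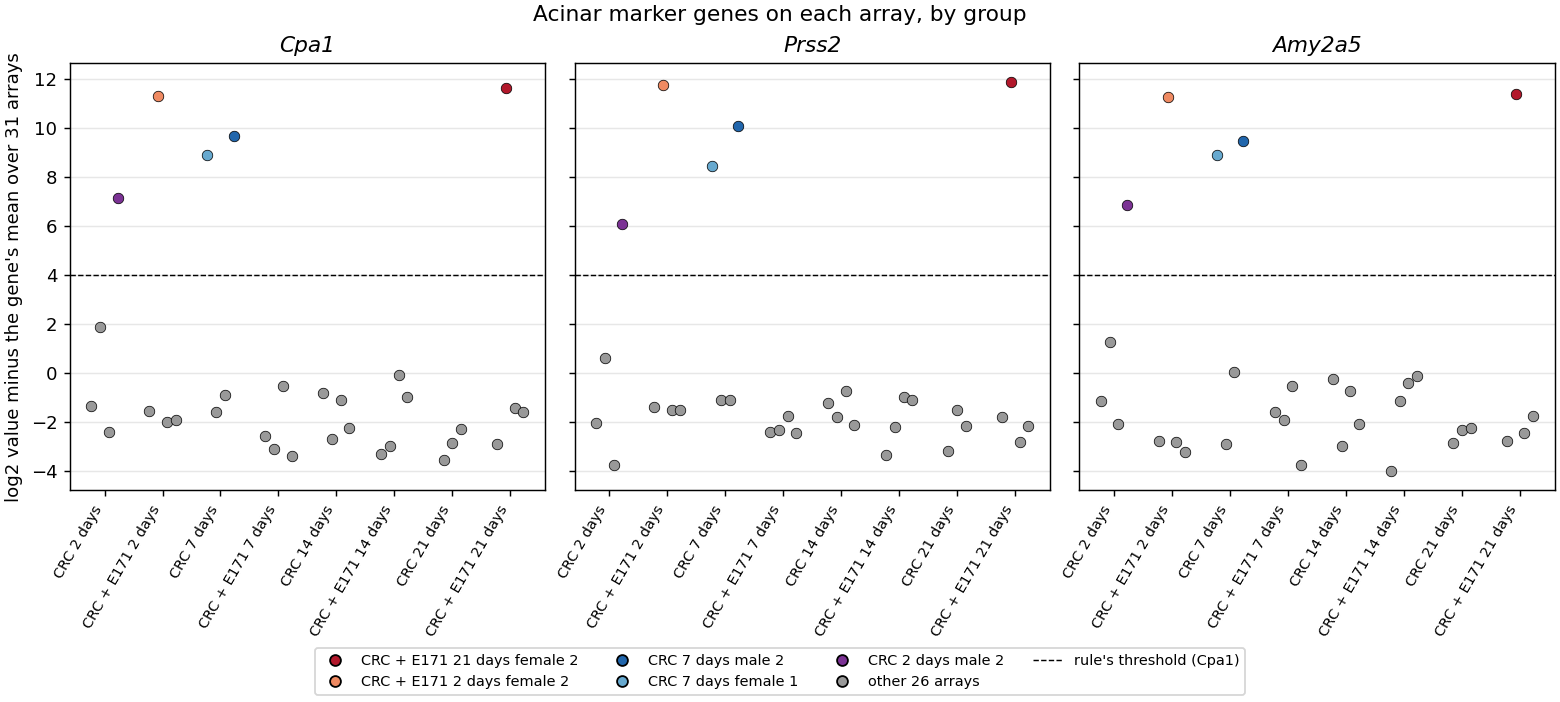
Each point is 1 array, placed by group on the x axis, and the y axis gives the log2 value of Cpa1, Prss2 or Amy2a5 minus the gene's mean over the 31 arrays. The dashed line is the threshold of 4 used on Cpa1. The 5 coloured arrays lie between 6.06 and 11.85 in the 3 genes, and the highest grey point is CRC 2 days female 2 with 1.87 for Cpa1.

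Promoters are shown for the 3 marker genes, for a further elastase and lipase gene of the acinar programme, and for Cela1, an elastase gene that did not separate the arrays. Each runs from 250 bases before to 50 bases after the gene start and is written 5′ to 3′ on the gene's strand, as RefSeq gives it on GRCm38.p6. Capitals mark CACCTG, a form of the E-box, and TTTCCC, the core of the TC-box, or their reverse complements CAGGTG and GGGAAA. The PTF1 complex is known to bind an E-box and a TC-box together. Both strands were searched, and neighbouring matches of the 2 motifs can share a base.
Cpa1 chr6:30638968-30639267 (+): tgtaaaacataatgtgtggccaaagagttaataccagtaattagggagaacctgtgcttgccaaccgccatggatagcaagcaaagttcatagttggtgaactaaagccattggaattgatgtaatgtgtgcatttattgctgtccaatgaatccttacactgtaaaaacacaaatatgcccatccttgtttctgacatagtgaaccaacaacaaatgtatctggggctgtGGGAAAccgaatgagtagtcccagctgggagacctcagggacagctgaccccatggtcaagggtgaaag
Prss2 chr6:41521526-41521825 (+): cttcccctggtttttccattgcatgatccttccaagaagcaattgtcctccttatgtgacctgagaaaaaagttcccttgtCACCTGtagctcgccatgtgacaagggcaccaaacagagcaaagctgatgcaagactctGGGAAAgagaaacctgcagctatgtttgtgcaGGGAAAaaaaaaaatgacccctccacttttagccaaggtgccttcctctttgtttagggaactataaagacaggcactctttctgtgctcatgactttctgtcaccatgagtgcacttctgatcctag
Amy2a5 chr3:113258650-113258949 (-): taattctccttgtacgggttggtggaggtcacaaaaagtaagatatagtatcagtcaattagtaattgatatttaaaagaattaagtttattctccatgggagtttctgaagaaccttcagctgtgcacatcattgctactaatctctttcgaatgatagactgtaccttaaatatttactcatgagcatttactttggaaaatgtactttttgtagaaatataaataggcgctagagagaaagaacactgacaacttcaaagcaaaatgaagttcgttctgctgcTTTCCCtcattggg
Cela3b chr4:137430471-137430770 (-): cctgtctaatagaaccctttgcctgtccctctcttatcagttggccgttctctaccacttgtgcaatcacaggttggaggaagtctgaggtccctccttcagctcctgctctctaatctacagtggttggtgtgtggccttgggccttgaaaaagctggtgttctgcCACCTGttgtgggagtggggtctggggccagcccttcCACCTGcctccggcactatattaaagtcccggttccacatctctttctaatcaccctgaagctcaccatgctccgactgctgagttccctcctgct
Cel chr2:28563354-28563653 (-): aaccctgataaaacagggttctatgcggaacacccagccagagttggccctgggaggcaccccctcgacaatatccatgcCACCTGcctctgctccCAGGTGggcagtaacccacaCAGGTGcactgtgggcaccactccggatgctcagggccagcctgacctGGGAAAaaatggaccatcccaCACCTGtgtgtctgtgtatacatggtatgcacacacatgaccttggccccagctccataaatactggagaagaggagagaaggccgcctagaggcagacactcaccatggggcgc
Cela1 chr15:100687871-100688170 (-): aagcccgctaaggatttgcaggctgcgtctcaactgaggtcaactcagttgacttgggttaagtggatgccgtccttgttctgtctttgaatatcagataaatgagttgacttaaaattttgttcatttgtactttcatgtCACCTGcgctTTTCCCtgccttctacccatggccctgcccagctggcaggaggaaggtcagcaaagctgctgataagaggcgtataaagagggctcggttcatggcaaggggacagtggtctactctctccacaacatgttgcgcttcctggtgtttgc

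In these windows Prss2 held CACCTG 1 time and TTTCCC 2 times, counted on both strands. Cpa1 and Amy2a5 held TTTCCC 1 time each and no CACCTG, and Cela3b held CACCTG 2 times and no TTTCCC. The match of Amy2a5, like that of the amylase gene Amy2b, lay after the gene start, from base 37 on. Both are included in the counts below. Cel held CACCTG 4 times and TTTCCC 1 time. Cela1 held both motifs as well, 1 time each. Promoters were found for 30 of the 37 genes that are described next as higher on the 5 arrays. CACCTG was present in 20 of the 30, against 20.2% of all 32851 promoters in the table. TTTCCC was present in 13 of the 30, against 25.2% of all, and both motifs in 9 of the 30, against 4.86%. The counts include close copies, such as the promoters of Gm5771 and Prss1 or of Cela3a and Cela3b, which share much of their sequence. A match is a run of letters and not a measured binding site.

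The first question was which genes travelled with Cpa1. A gene was called higher when each of the 5 arrays read above each of the 26 others and the means differed by 1 log2 unit or more. Of 24883 genes, 37 were called higher (0.149%) and 0 were called lower (0%). The median difference over all genes was 0.02 log2 units. Because Cpa1 chose the arrays and the genes of its programme share the choice, these values carry no test. The 37 genes had differences between 4.11 and 13.23 log2 units, and each was well above background on all 5 arrays. Of the 37 genes, 32 belonged to the acinar gene lists of 60 genes. Compared within treatment-and-day groups by a linear model, all 37 also read higher on the 5 arrays. The call fixes this direction in any group that held both kinds of array, so it is no added support. The smallest difference within groups was 4.25, and the values moved by at most 0.48.

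**Figure D2:**
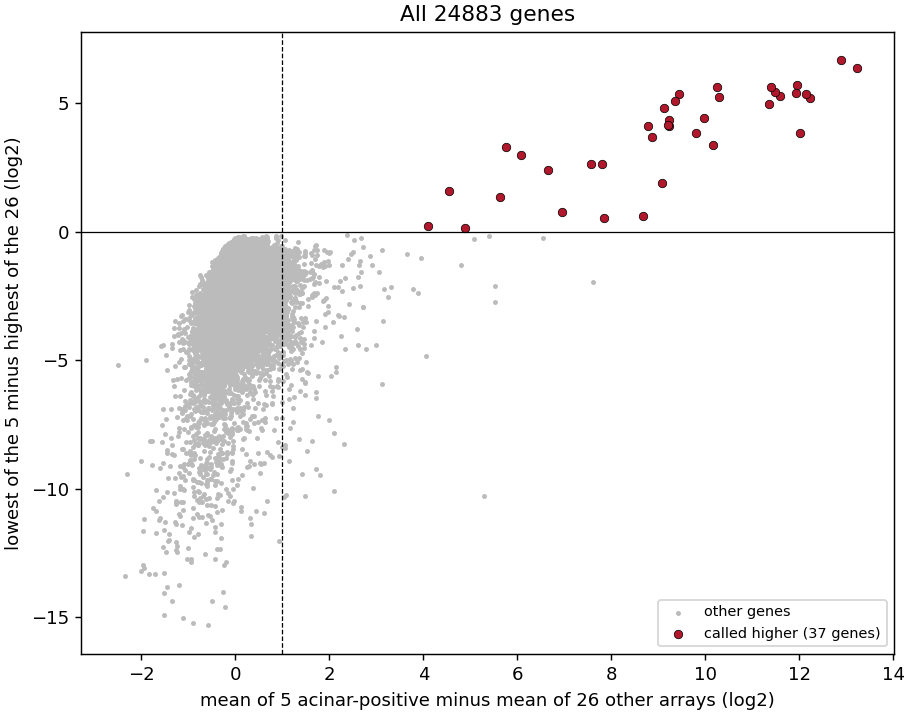
Each point is 1 of 24883 genes. The x axis gives the mean of the 5 arrays minus the mean of the 26 others in log2 units, and the y axis gives the lowest of the 5 minus the highest of the 26. The 37 called genes lie above 0 on the y axis, and no other gene does.

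Digestive enzymes made up most of the set. Of the 26 enzyme genes listed, 24 were called higher, and the median difference over all 26 was 9.25 log2 units, or 9.10 with Try10 taken at the bound given below. Pancreatic amylases, which split starch, were among them. Amy2b read 7.55, 7.64, 5.98, 3.41 and 1.02 on the 5 arrays, and on the other arrays it read -9.30 at the lowest, -8.18 at the median and -5.36 at the highest. The difference of means was 13.23, but the probe was well above background on 1 of the 26 other arrays, so the size of this difference rests largely on signals near background. The same holds for Gm5771, Pnlip and Tff2, described below, which were well above background on 3 of the 26 each. Amy2a5 read 8.02, 7.91, 6.13, 5.54 and 3.51, against -7.35, -5.43 and -2.09 for the lowest, median and highest of the others, a difference of 11.41. The groups did not overlap for either gene. The amylase genes lie side by side on chromosome 3 and resemble each other, so a probe of one may take signal of another.

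Trypsinogens, the precursors of trypsin, formed the largest family. Prss2 read 8.15, 8.04, 6.35, 4.74 and 2.35 on the 5 arrays and -7.48, -5.53 and -3.09 at the lowest, median and highest of the others, a difference of 11.49. Try4 and Try5 differed by 12.15 and 11.93, and Prss1 and Prss3 by 9.44 and 6.08. Try4 and Try5 had the highest reading among the other arrays, at -0.86 each, on CRC 2 days female 2. Try10 was well above background on 0 of the 26 other arrays, so only a bound can be given, and it was at least 265-fold higher. The bound sets the mean of the 5 arrays against, per other array, the higher of the probe's own signal and the lowest signal well above background. Of the 5 called genes outside the acinar lists, 3 are unnamed or clone-named genes of the same region of chromosome 6, singled out after their values were seen. Gm5771 differed by 12.90, Gm10334 by 9.24 and 2210010C04Rik by 7.86. In the RefSeq order Gm5771 lies next to Prss3 and Gm10334 next to Prss1. Trypsinogen genes are near copies, and probes may not separate them.

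Other proteases also read highest on the CRC + E171 arrays of the 5. The carboxypeptidase gene Cpa1 itself read 8.09, 7.79, 6.15, 5.36 and 3.60, against -7.07, -5.48 and -1.65 for the lowest, median and highest of the others. Cpb1, carboxypeptidase B1, differed by 9.13. Among the elastases, which cut elastin and other proteins, Cela3a differed by 11.95, Cela3b by 10.29 and Cela2a by 5.76. Cela3b read 8.38, 8.14, 6.54, 5.21 and 3.09 on the 5 arrays and between -4.94 and -2.16 on the others. Chymotrypsinogens were measured well above background on most other arrays too. Ctrb1 read 8.20, 8.05, 6.32, 5.93 and 4.39, against -4.03, -2.81 and -0.69 for the lowest, median and highest of the 26, a difference of 9.36. Ctrc and Ctrl differed by 9.97 and 7.56.

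Lipid-digesting enzymes read higher on the same arrays. Pnlip, pancreatic triglyceride lipase, read 7.33, 7.34, 5.04, 3.43 and 0.998, and -8.69, -7.65 and -4.20 at the lowest, median and highest of the others, a difference of 12.23. Cel, the bile salt-dependent carboxyl ester lipase, read 8.27, 8.30, 6.35, 4.53 and 2.34, against -3.67 to -1.75 on the others. Pnliprp1 and Pnliprp2, which are lipase-related proteins, differed by 9.07 and 6.96. Pla2g1b, a secreted phospholipase, differed by 6.66. Clps, the colipase that anchors lipase to fat droplets, differed by 5.62. It was well above background on all 26 other arrays, where it reached 2.16 against 3.49 on the lowest of the 5. Rnase1, a secreted ribonuclease, differed by 8.68.

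Cela1 and Klk1 were the enzyme genes that were not called. Cela1 read 7.42, 7.49, 5.08, 4.63 and 3.72 on the 5 arrays, while the others had a median of 3.66 and reached 4.50. Klk1, tissue kallikrein, read 7.35, 6.68, 5.79, 5.81 and 5.93, while the others had a median of 5.70 and reached 7.01. Both were well above background on all 26 other arrays, and the groups overlapped.

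**Figure D3:**
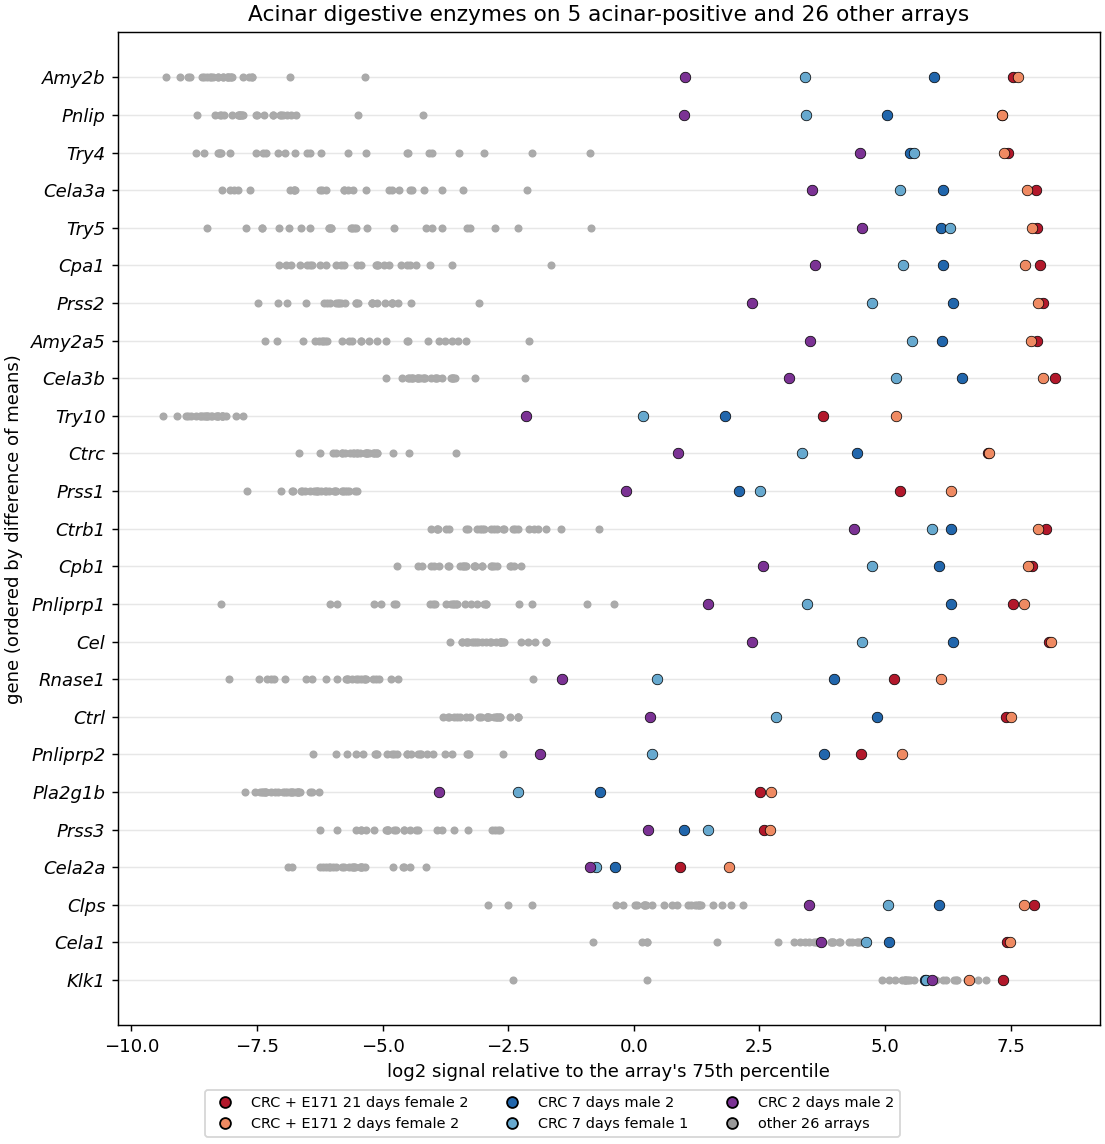
Each row is a digestive enzyme gene, ordered by the difference of means, and the x axis gives the log2 signal relative to the array's 75th percentile. Coloured points are the 5 arrays and grey points are the 26 others. The groups overlap for Cela1 and Klk1 and are apart in the other rows.

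Secreted proteins other than enzymes separated the arrays only in part. Of 12 listed genes, 6 were called higher. Reg1 and Reg2, secreted lectins of the regenerating family, differed by 11.36 and 12.01. Reg3d read 3.50, 3.096, 5.72, -1.92 and -3.02, against at most -5.64 on the others, so that its highest value was on CRC 7 days male 2 and not on the arrays with the highest Cpa1. Tff2, a trefoil peptide, differed by 10.16. Serpini2, a serine protease inhibitor, and Cuzd1, a zymogen granule protein, were well above background on 0 of the 26 other arrays, and were at least 213-fold and at least 106-fold higher. Gp2, the main glycoprotein of the granule membrane, read 6.77, 7.28, 5.81, 2.42 and 1.001. It was well above background on all 26 other arrays and differed by 6.54. It was not called, because CRC 21 days female 2 read 1.26.

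The remaining 5 listed secreted proteins overlapped between the groups. Sycn, a granule protein, read 8.19, 8.02, 6.25, 6.55 and 6.41, against a median of 6.64 on the others, a difference of 1.16. Spink1, a trypsin inhibitor, differed by 0.98, Zg16 by 0.39, Clu by 0.39 and Dmbt1 by 0.22. The medians of Spink1, Zg16 and Dmbt1 on the other arrays were 6.40, 7.44 and 6.80.

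Transcription factors of the acinar programme had 0 of 7 genes called. For Ptf1a, Rbpjl and Bhlha15 the 3 arrays with the highest Cpa1 values read above all other arrays, and for the remaining 4 factors they did not. Ptf1a read -1.69, -0.19 and -1.74 on CRC + E171 21 days female 2, CRC + E171 2 days female 2 and CRC 7 days male 2, and -5.57 and -6.49 on CRC 7 days female 1 and CRC 2 days male 2. The other 26 arrays read between -8.95 and -4.08, with the probe well above background on 5 of them. Rbpjl read -0.53, 1.08, -0.82, -3.56 and -4.21, against -4.82 at the median and -2.63 at the highest of the others. Bhlha15, a basic helix-loop-helix factor of secretory cells, read 1.75, 2.66, 1.21, -0.41 and -1.54, against -0.48 at the highest of the others. Gata4 had a difference of 1.22. Nr5a2, Foxp2 and Prox1 had differences of 0.16, -0.13 and -0.22, and Nr5a2 had a median of 1.25 on the other arrays.

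Receptors, transporters and enzymes of acinar metabolism also separated the arrays only in part. Of 15 genes, 2 were called, and both encode proteins of the endoplasmic reticulum. Pdia2, a protein disulfide isomerase of the pancreas, read 6.17, 6.82, 4.29, 1.62 and -0.24, against at most -4.38 on the others. Erp27 read 1.72, 2.37, 1.48, -2.34 and -3.35, against at most -3.58. Aqp12, an aquaporin, read 2.01, 2.51, 0.06, -3.03 and -4.33, and overlapped with the others, which reached -4.14. Cckar, the cholecystokinin receptor, read 0.36, 1.69, 0.32, -3.15 and -3.47, against -2.60 at the highest of the others. Tmed6 and Gnmt had differences of 3.77 and 2.09. Slc38a5, a glutamine transporter outside the lists that was singled out after its values were seen, was called with a difference of 4.88, and its lowest value among the 5 was -4.24 against -4.38. Genes of the general folding machinery of the endoplasmic reticulum had 0 of 16 genes called and a median difference of 0.25.

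With the 3 arrays above 9 for Cpa1 against the same 26 others, an alternative set after the data were seen, 181 genes were called higher (0.727%) and 8 lower (0.0322%). The 181 contained the 37, and 9 of the 144 further genes were in the acinar lists. The 3-array set is smaller, which makes it easier for a gene to separate, so the count is a description only. Reg3a, a lectin in the same gene cluster as Reg1, had the largest difference among the further genes. It read 0.91, 2.09, 5.87, -3.06 and -3.33 on the 5 arrays, with -1.36 as the highest of the others. It was singled out after its values were seen.

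The 5 arrays differed among themselves in a common order. Over the 37 called genes, CRC 2 days male 2 had the lowest value in 37. CRC + E171 2 days female 2 had the highest value in 25 and CRC + E171 21 days female 2 in 11. These 2 arrays differed by a median of -0.09 log2 units (interquartile range -0.65 to 0.10, the 21-day array minus the 2-day array). CRC + E171 21 days female 2 lay above CRC 7 days male 2 by a median of 1.84, above CRC 7 days female 1 by 3.66 and above CRC 2 days male 2 by 5.79. CRC 7 days male 2 lay above CRC 7 days female 1 by 1.64, with Reg3d at 7.64 and Prss3 at -0.48 as the extremes.

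Among the other arrays, CRC 2 days female 2 most often came closest. It had the highest of the 26 values for 14 of the 26 enzymes and for 16 of the 37 called genes. Its enzyme list level, the median over the list of the value minus the gene's mean, was 0.17, while the 5 arrays read 9.80, 10.28, 8.08, 6.79 and 4.47 and the median of the others was -1.46. It lay on the same slide as CRC 2 days male 2. On each slide that held 1 of the 5 arrays or more, the remaining arrays had Cpa1 values between -6.50 and -1.65. Cpa1 chose the arrays, so these lower values follow from the choice, and the part of the slides was not tested.

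Markers of other cell types were then read on the same arrays. Of 254 measured genes in 27 further lists, 1 was called higher. This was Amy1, the amylase of the salivary gland list, with a difference of 9.23. It is a neighbour of the pancreatic amylase genes, and the remaining 9 salivary genes were not called. The medians of the 27 lists lay between -1.20 and 0.96, and no list placed all 5 arrays above all 26 others. Pancreatic ducts had a median difference of -0.15, or 0.09 when compared within groups, and 3 of 10 genes differed by 1 or more. These were Onecut1 at 2.24, Spp1 at 1.67 and Muc1 at 1.07, while Krt19 and Cftr stood at -0.12 and -0.31. Onecut1, a factor of ducts and the early pancreas, read -4.13, -2.85 and -3.69 on the 3 arrays with the highest Cpa1, -8.04 and -8.50 on the remaining arrays of the 5, and at most -6.55 on the others.

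Insulin was high on 1 array. Ins1 read -1.33 on CRC + E171 21 days female 2, -4.54 or lower on the other 4 of the 5, and between -6.41 and -4.91 on the 26 others. Ins2 read -1.55 on that array and -5.92 or lower on the other 4, and the 26 others reached -5.87. The beta cell list had 0 of 10 genes called and a level of 1.28 on that array, against at most 0.61 on the others. Genes of other islet cells, Gcg, Sst and Ppy among them, which the colon's own endocrine cells also express, had 0 of 9 called and a median difference of 0.12. Their part in the result was not tested.

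Lists of neighbouring tissues were read in the same way. Small intestine and liver lists had median differences of -0.55 and -0.09. Stomach and spleen lists had 0.10 and 0.17, or -0.20 and -0.11 with dim genes at their bound. Adipocyte genes had the highest median of the 27 lists, 0.96, with levels of 1.61, 0.09, 0.46, 0.46 and 0.83 on the 5 arrays, while the others ranged from -1.84 to 1.87 with a median of -0.05. Of the 14 adipocyte genes 7 differed by 1 or more and 0 by -1 or less, the median within groups was 1.27, and none was called because the groups overlapped. Adipoq, the fat cell hormone adiponectin, differed by 2.18. T cell genes had a median difference of 0.87 and B cell genes of 0.70 (1.10 within groups). T cell levels were -1.03, 1.62, 1.497, 0.29 and 1.02 on the 5 arrays, against -1.96 to 1.98 on the others. The part of adipose tissue and lymphocytes in the result was not tested. Mesothelial genes read highest on CRC 7 days male 2, at 1.91 against at most 0.92 on the others, and -0.44 and -0.99 on the arrays with the highest Cpa1. That array also stood apart in other lists, with a neutrophil level of 5.75 and a colonocyte level of -3.45, where the remaining 4 of the 5 arrays had colonocyte levels between 0.07 and 0.87. On these 4 arrays the colonocyte genes lay within the range of the others (-6.74 to 1.84). Its endothelial and macrophage levels, 1.82 and 1.21, also lay above the highest of the others, 0.82 and 0.76, and their part in its values was not tested.

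**Figure D4:**
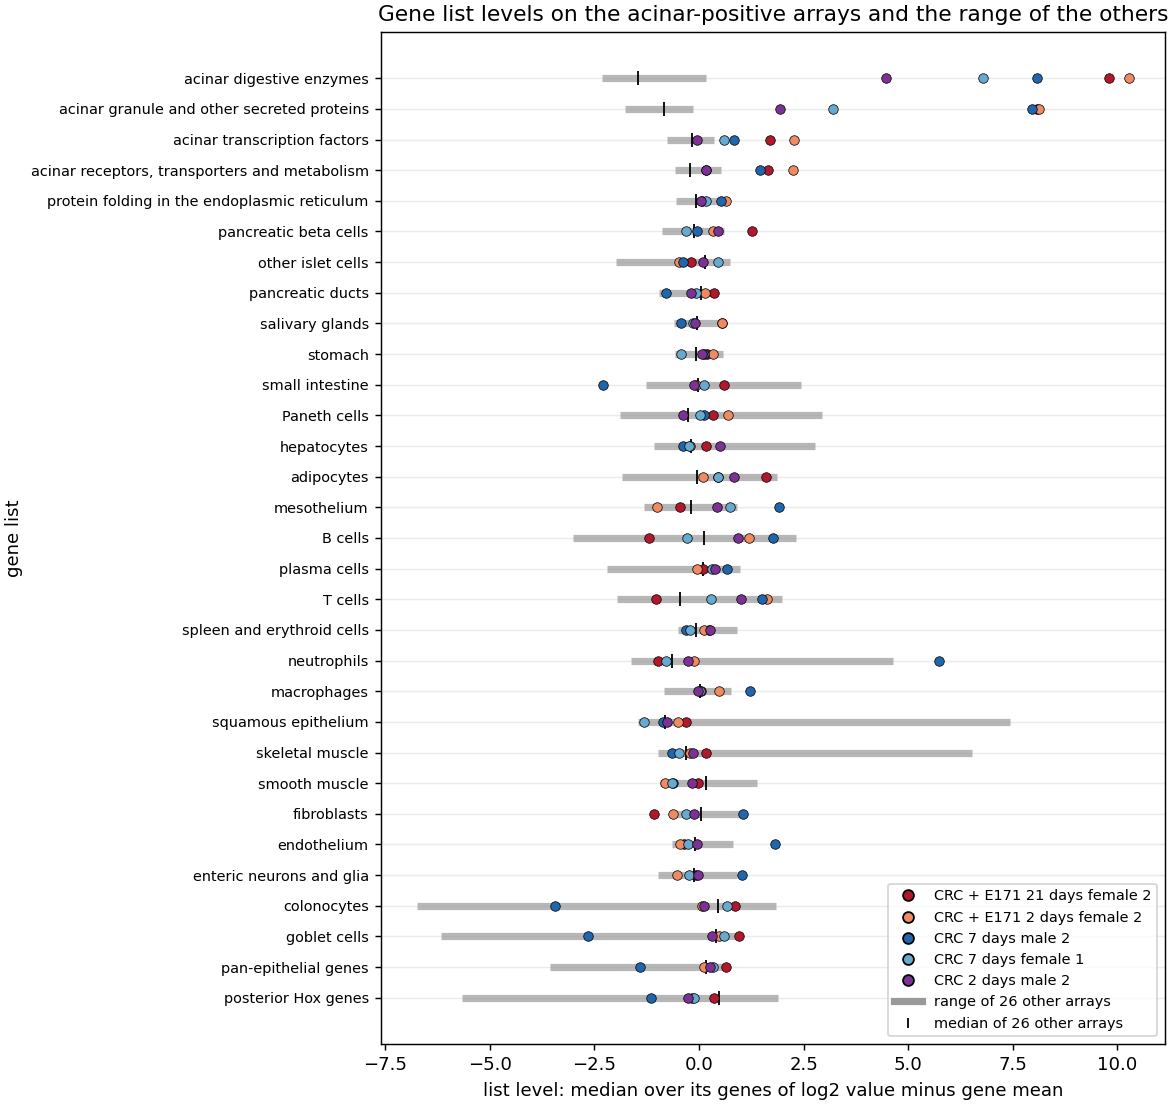
Each row is a gene list, and the x axis gives its level on an array, the median over its genes of the log2 value minus the gene's mean over the 31 arrays. Coloured points are the 5 arrays, bars are the range of the 26 others and ticks their median. Only the lists of digestive enzymes and of granule and other secreted proteins place all 5 arrays above the bars.

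Whether the 5 arrays fell on particular labels was tested over 6 labels, with Benjamini-Hochberg adjustment of the p-values. They were 3 of 15 CRC and 2 of 16 CRC + E171 arrays (exact Fisher test, two-sided, p = 0.654, adjusted p = 0.985). By sex they were 3 of 16 females and 2 of 15 males (exact Fisher test, p = 1). By replicate number they were 1 of 16 and 4 of 15 for numbers 1 and 2 (exact Fisher test, p = 0.172, adjusted p = 0.985). By day they were 2 of 8, 2 of 8, 0 of 8 and 1 of 7 (exact permutation test, p = 0.604). Slides and scan days gave exact permutation p-values of 0.715 and 0.821, with 2 of the 5 arrays on 1 slide. None of the 6 tests passed, and 5 arrays leave such tests with little power. The signal at the 75th percentile ranged from 1717 to 6536 over all arrays, and both ends were among the 5. The share of spots well above background was 69.6 to 74.3% on the 5 and 67.4 to 78.9% over all arrays.

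The study compares CRC + E171 with CRC on each day, and the 5 arrays lay unevenly over these groups. The CRC group of 7 days held 2 of them, and the CRC group of 2 days, the CRC + E171 group of 2 days and the CRC + E171 group of 21 days held 1 each. Acinar genes were therefore followed through that comparison with limma over 19836 genes, of which 52 of the 60 acinar genes and 23 of the 26 enzymes passed the filter on dim probes. A DEG had a linear fold change of 1.5 or more and an unadjusted p under 0.05. At 7 days 9 of the 52 acinar genes were DEG, 4 up and 5 down, when 12.4% of all genes were. At 14 days 2 were DEG, both down (6.34% of all), and 0 were at 2 days (1.72%) and 21 days (2.67%). In the fit blocked on sex and replicate number these shares of all genes were 3.4% at 2 days, with 1 acinar DEG, and 4.21% at 21 days, with 0. After Benjamini-Hochberg adjustment over all genes in limma, 0 acinar genes and 0 genes of any kind passed 0.05 on any day, although 9 acinar genes at 7 days and 2 at 14 days had an unadjusted p under 0.05.

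The enzyme genes shared a direction on the days with uneven numbers. At 7 days 22 of 23 read lower in CRC + E171, and their median log2 fold change was -4.79 (median SE 2.45). The log2 fold change of Cpa1 was -6.42 (SE 2.99, adjusted p = 0.283 in limma), with means of 0.49 in CRC and -5.93 in CRC + E171. Prss2 had -6.31 (SE 2.99, adjusted p = 0.288), and Try5, Cel and Rnase1 had -6.84, -4.79 and -5.39. These were the 5 DEG that read lower. At 21 days 23 of 23 enzymes read higher in CRC + E171, the median was 2.58 (median SE 2.65) and none was DEG. The log2 fold change of Cpa1 was 4.32 (SE 3.23, adjusted p = 0.913). At 2 days, where each group held 1 of the 5 arrays, 18 of 23 read higher and the median was 1.14. That direction rested on 1 array, since the median was -1.69 without CRC + E171 2 days female 2, and between 0.40 and 2.36 without any other single array of the day. The median of 21 days was likewise 0.05 without CRC + E171 21 days female 2. At 14 days, where no array was among the 5, 16 of 23 read lower and the median was -0.16. Leaving out single arrays of the day gave medians of -0.57 to 0.16 at 14 days and -6.10 to -3.16 at 7 days. Over all genes the medians were between -0.01 and 0.06.

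Without the 5 arrays the median fold change of the enzymes was -0.44 for day 7 (median SE 0.80), 0.05 for day 21 (0.75), -0.24 for day 2 (0.75) and, with no array removed, again -0.16 for day 14 (0.65). Cpa1 then had a fold change of -1.15 at 7 days (SE 1.01) and 0.91 at 21 days (SE 0.95), and Prss2 had -1.13 at 7 days. The arrays were removed for their high Cpa1, and the enzymes separate the same arrays, so these smaller values and standard errors follow from the choice and are a description with no test. Without these arrays the CRC group of 7 days held 2 arrays.

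**Figure D5:**
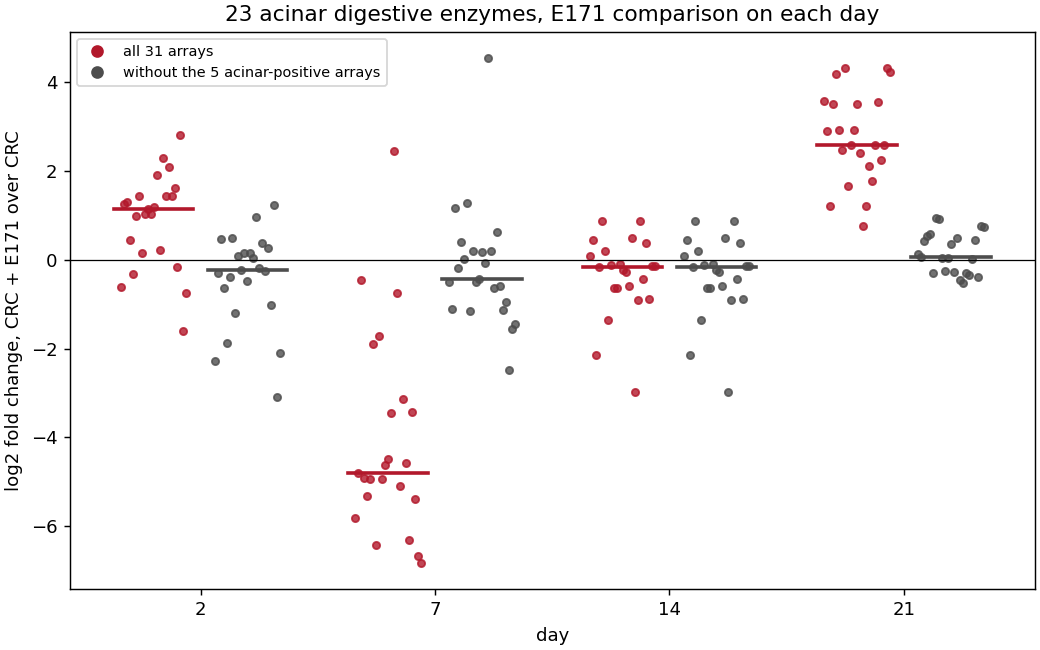
Each point is 1 of 23 digestive enzyme genes, the x axis gives the day and the y axis the log2 fold change of CRC + E171 over CRC. Red points use all 31 arrays and grey points leave out the 5 acinar-positive arrays, with medians as lines. The red medians are 1.14, -4.79, -0.16 and 2.58, and the grey ones -0.24, -0.44, -0.16 and 0.05, a change that the choice of the arrays by Cpa1 fixes.

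The median standard errors of the enzymes were smaller on every day without the 5 arrays, also at 14 days, because the spread was estimated over all groups. Acinar DEG then numbered 14 for day 7 (18.5% of all genes), 9 for day 14 (7.74%), 2 for day 2 (3.5%) and 0 for day 21 (3.71%). The arrays were removed for their high Cpa1, which fixes the smaller errors of genes that travel with it. These counts are therefore a description with no test. Of the 9 at 7 days, 6 were among the 14. At 14 days Reg1 and Reg2, which had not been DEG, had the same fold changes of 2.58 and 2.91 with standard errors of 0.83 and 1.14 in place of 3.098 and 3.39, and Pnliprp1 had -2.97 with 0.92 in place of 2.56. Of all genes, 1885 of the 2459 DEG at 7 days were DEG in both fits, which is also 1885 of the 3678 found without the 5 arrays. After adjustment 104 genes then passed 0.05 at 7 days, 0 of them acinar, and 0 on the remaining days. In that fit the CRC group of 7 days held only male 1 and female 2. Male 1 had list levels of -6.74 for colonocytes and 7.43 for squamous epithelium, and its part in the count was not tested.

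The 4 acinar-list genes that were up at 7 days are ones the colon arrays carry as well. Dmbt1, a mucosal scavenger protein, read 1.40 log2 units higher in CRC + E171 (SE 0.56, limma adjusted p = 0.227), Zg16, a secreted lectin of goblet cells, had a fold change of 2.35 on that scale, Nr5a2, a nuclear receptor of gut and pancreas, 2.02 and Slc39a5, a zinc transporter, 2.20. Without the 5 arrays Dmbt1, Zg16 and Slc39a5 had 2.22, 3.85 and 3.33. The colonocyte list read -6.74 on CRC 7 days male 1 and -3.45 on CRC 7 days male 2, against 0.22 or higher on the other 6 arrays of that day. CRC 7 days male 1 also read 7.43 for squamous epithelium, 6.54 for skeletal muscle and 4.65 for neutrophils. In CRC + E171 at 7 days, female 2 read -4.32 for posterior Hox genes and female 1 read 2.78 for hepatocytes. The part of these differences in the 7-day values was not tested. The DEG of day 14 were Spink1 with -3.29 (SE 1.29, limma adjusted p = 0.559) and Clu, a secreted chaperone, with -1.46 (adjusted p = 0.598). Arrays of the CRC + E171 group of that day stood apart in other lists. The posterior Hox genes read -5.66 on female 1 and -4.76 on female 2, and male 2 had levels of -2.46 for colonocytes, -3.86 for goblet cells, 4.85 for squamous epithelium and 3.28 for neutrophils. The part of these differences in the 14-day values, those of Reg1, Reg2 and Pnliprp1 included, was not tested. The array labelled male 2 of the CRC group of 14 days read -1.60 for Xist, inside the range of the females (-2.34 to -0.70), while the other males read at most -6.53, so its label is in doubt. Without it 3 acinar genes were DEG at 14 days, when 5.91% of all genes were.

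The effect of E171 was also compared between days for the acinar genes. An F test of the 3 differences between days in limma gave 0 of 52 genes with an adjusted p under 0.05 and 0 with an unadjusted p under 0.05, and the smallest adjusted p was 0.717. The difference in direction between 7 and 21 days was therefore not shown by this test. The number of acinar DEG at 7 days moved with single arrays of either kind. It was 21 without CRC 7 days male 1, when 4.64% of all genes were DEG, and 26 without CRC 7 days female 2, when 18.2% were. It was 5 without CRC 7 days male 2 (8.76% of all genes). Without the CRC + E171 arrays male 1, female 1, male 2 and female 2 it was 5, 3, 4 and 2 (9.59%, 10.8%, 12.2% and 10.6% of all genes). The acinar count thus did not follow the count over all genes from fit to fit. At 14 days it was 4, 1, 0 and 0 without the CRC + E171 arrays male 1, female 1, male 2 and female 2 (8.39%, 4.45%, 10.8% and 5.04% of all genes), and 1 without CRC 14 days female 1 (4.83%).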

How the data were processed

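Colon RNA of 31 mice was measured on 1-colour Agilent SurePrint G3 mouse arrays. Spots were quantified by the authors in Feature Extraction 10.7.3.1. The deposited intensity of each spot is background-subtracted and not normalized between arrays. A second deposited table holds log2 values, from which probes were removed by flags, missing values and mean level and missing values imputed. It served as an alternative, and its normalization between arrays is not given in the sources used here. Both kinds of file were used, and the number of arrays per group limits the precision.

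Processed signals were divided by the array's 75th percentile and log2 transformed, with spots marked as outliers left out. The 56605 probes were matched to RefSeq genes (GRCm38.p6) by accession (33884), symbol (9466) or synonym (488), and averaged per gene. The description of the 5 arrays used all 24883 genes without a filter. The E171 comparison used limma 3.58.1 in R 4.3.3, with 8 groups, all arrays and probes well above background and unflagged on 60% of the arrays of a group with a mean log2 signal of 4 or more. Label tests used scipy 1.17.1. The limma step was tested on simulated data. Deviations of same-numbered arrays from their group means correlated above 0.1 in 3 of 3 pairs at 21 days, 3 of 4 at 2 days, 2 of 4 at 7 days and 0 of 4 at 14 days, and the labels tie the numbers to no shared animal. Arrays numbered 1 lay on slides 1 to 4 and arrays numbered 2 on slides 5 to 8, so the number follows the slides. Scan day 2 held arrays of both numbers. The block of sex and replicate number was an alternative. The members and gene lists were chosen with earlier results of these data known. Named genes were the 3 markers, the acinar lists, up to 4 genes of largest difference in another list, the 15 genes of largest difference and the acinar DEG. Genes singled out otherwise are said to be so, and a few genes are not reported here. Alternatives were quantile normalization, normexp (offset 50), the authors' values, other filters and thresholds, blocks, and leaving out arrays.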

Additional observations from a re-analysis of the deposited data

Results flagged for a closer look

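In the 7 groups of 4 arrays, the 3 marker genes and the levels of the 4 acinar lists were checked for an array far from its group, 49 checks in all, and 13 such values were found, all on 2 of the 5 arrays. Chance gives about 1 in 20 for independent checks, but these arrays were chosen by Cpa1 and the measures travel together, so the number found is a description and is not read against that rate. CRC + E171 2 days female 2 lay far above the other 3 arrays of its group for Cpa1 (7.79 log2 units relative to the array's 75th percentile), Prss2 (8.04) and Amy2a5 (7.91). The same array stood apart in the list levels of digestive enzymes (10.28), granule and other secreted proteins (8.14), transcription factors (2.28) and receptors, transporters and metabolism (2.24). CRC + E171 21 days female 2 lay far above its group for Cpa1 (8.09), Prss2 (8.15) and Amy2a5 (8.02), and in the list levels of digestive enzymes (9.80), granule and other secreted proteins (8.08) and receptors, transporters and metabolism (1.66). The groups of CRC at 2 and 7 days gave no such array. The check sets an array against the next one of its group, so the 2 of the 5 arrays in CRC at 7 days mask each other. In CRC at 2 days the next array, female 2, was the one just outside the Cpa1 threshold. The lack of a flag in these groups therefore says little.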

How the results depend on the processing

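The set of 5 arrays was the same under all 7 alternatives tried for it. The number of genes called higher was 26 to 37 for these 5 arrays under the other settings and 37 to 48 when 1 of the 5 arrays was left out, and 0 genes were called lower under any of them. The median difference of the enzymes was 8.64 to 9.99 when 1 array was left out and 8.46 to 10.85 under the other alternatives. With the 3 arrays above 9 for Cpa1, chosen after seeing the data, 181 genes were called higher and 8 lower. The number of acinar DEG was 0 at 2 days (1.72% of all genes) and 1 after normexp (2.71%), 1 with a replicate block (3.4%), 2 without the 5 arrays (3.5%) and 2 in the authors' values without them (2.66%, this last also chosen after seeing the data). At 7 days it was 9, and 14 after quantile normalization (13% of all genes), 5 after normexp (10.6%) and 14 without the 5 arrays (18.5%). At 14 days it was 2, and 1 without a filter (5.71%), 9 without the 5 arrays (7.74%) and 9 in the authors' values without them (10%), and at 21 days it was 0, and 1 in the authors' values without them (3.97%). The cause was not tested, and the counts without the 5 arrays are a description only, since the arrays were removed for their high Cpa1. Leaving out single arrays of the day gave 0 to 2 at 2 days (0.776% to 3.58% of all genes), 2 to 26 at 7 days (4.64% to 20.1%), 0 to 4 at 14 days (4.45% to 10.8%) and 0 at 21 days (2.22% to 4.49%), and the median fold change of the enzymes then ranged from -1.69 to 2.36 at 2 days, -6.10 to -3.16 at 7 days, -0.57 to 0.16 at 14 days and 0.05 to 3.83 at 21 days. Same-numbered arrays correlated above 0.1 in 8 of 15 pairs (range -0.18 to 0.48), and in every pair only at 21 days. With the sex and replicate number as a replicate block the median was 1.14, -4.79, -0.16 and 2.52, with 1, 9, 2 and 0 acinar DEG and 3.4%, 12.8%, 7.68% and 4.21% of all genes DEG. No slide held both groups of a day, so slide and treatment cannot be told apart within a day. Slide as a random block does not change this. Probes not well above background on the other arrays limit the lower values to bounds.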
